A study of Mus musculus with 2 samples.

Results

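Imprinted genes that act on growth were examined in the embryonic mouse lens, apart from those of the insulin-like growth factor axis. The 10 genes chosen by name were H19, Dlk1, Meg3, Peg3, Mest, Grb10, Plagl1, Ndn, Peg10 and Sgce, and every array probe annotated with exactly 1 of these symbols was taken. This gave 22 of 45281 probes, for 9 of 19057 genes with a named probe. H19 had no probe under its symbol in the annotation used here and was not analysed. The series holds 2 samples of wild-type mouse lens from E12.5 (embryonic day) embryos, 1 for the epithelium and 1 for the fibers. From each, total RNA was labelled with biotin and read on a 1-colour Illumina array. The labels name no strain, number of embryos or method of separating the tissues. With no replicates there is no error, test or p-value for any value below, and each comparison describes these arrays.

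An imprinted gene is transcribed mainly from the copy inherited from the mother or mainly from that inherited from the father, and the choice is carried by DNA methylation at CpG dinucleotides of control regions set in the germ line. Many imprinted genes act on growth, and in the embryo they are often active in dividing progenitors and turned down as cells mature. At this stage the lens consists of an anterior epithelium of dividing cells and of posterior fibers, which leave the cell cycle and elongate. The arrays read the sum of both parental copies, so they hold no information on imprinting itself.

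Among the 9 genes with a probe, Peg3, Grb10 and Mest were higher in epithelium and Ndn was higher in fibers, each by 2-fold or more. Peg3, a zinc finger protein gene, was 6.45-fold higher in epithelium, and Grb10, an adaptor that restrains signalling from insulin and related receptors, was 3.23-fold higher there. Mest, which encodes a protein of the alpha/beta hydrolase fold, was at least 2.31-fold higher in epithelium. Ndn, the gene of necdin, a growth-restraining protein of the MAGE family, was 2.51-fold higher in fibers. Dlk1, Meg3, Plagl1, Peg10 and Sgce gave no signal above the floor of either array.

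The promoter windows of the 4 genes with signal are printed because CpG dinucleotides are the sites at which imprints are written. Whether any of these windows lies in a control region of imprinting was not determined. Each window runs 5′ to 3′ on the gene's own strand, from 250 bases before a transcript start to 50 after it. All are taken from RefSeq, build GRCm38.p6. Capitals mark the CpG dinucleotides. Where a gene had several windows, the one with the most CpG dinucleotides is shown. The Peg3 window is chr7:6730370-6730669 on the minus strand, that of Mest chr6:30737800-30738099 on the plus strand, that of Grb10 chr11:12037371-12037670 on the minus strand and that of Ndn chr7:62348027-62348326 on the plus strand.
Peg3: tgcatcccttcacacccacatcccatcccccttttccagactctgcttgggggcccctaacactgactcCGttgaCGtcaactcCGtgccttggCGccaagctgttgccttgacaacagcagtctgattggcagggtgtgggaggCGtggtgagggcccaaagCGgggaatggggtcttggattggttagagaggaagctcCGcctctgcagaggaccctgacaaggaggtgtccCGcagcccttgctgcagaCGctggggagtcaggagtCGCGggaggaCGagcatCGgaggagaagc
Mest: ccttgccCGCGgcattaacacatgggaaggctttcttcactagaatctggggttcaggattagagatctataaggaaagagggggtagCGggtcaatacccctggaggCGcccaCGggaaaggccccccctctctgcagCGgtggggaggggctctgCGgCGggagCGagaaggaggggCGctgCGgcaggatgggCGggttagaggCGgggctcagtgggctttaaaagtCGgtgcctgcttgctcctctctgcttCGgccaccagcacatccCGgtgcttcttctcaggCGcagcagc
Grb10: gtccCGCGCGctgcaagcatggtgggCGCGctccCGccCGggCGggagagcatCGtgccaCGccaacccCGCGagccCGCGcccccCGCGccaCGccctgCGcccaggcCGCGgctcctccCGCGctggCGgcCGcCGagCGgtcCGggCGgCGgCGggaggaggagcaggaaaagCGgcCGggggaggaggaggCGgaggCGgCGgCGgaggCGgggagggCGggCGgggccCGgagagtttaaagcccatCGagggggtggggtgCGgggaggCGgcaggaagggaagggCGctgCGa
Ndn: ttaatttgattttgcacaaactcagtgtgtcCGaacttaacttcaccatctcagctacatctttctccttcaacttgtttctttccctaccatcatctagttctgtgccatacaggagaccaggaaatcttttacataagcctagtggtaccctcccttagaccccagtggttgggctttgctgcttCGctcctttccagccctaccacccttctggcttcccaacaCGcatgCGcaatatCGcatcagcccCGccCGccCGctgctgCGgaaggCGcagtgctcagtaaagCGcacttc

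The windows differed in CpG content. Grb10 held 45 CpG dinucleotides, a number reached by 1.93% of the 32851 promoter windows of the same table, whose median was 7. The Mest window held 17, the Peg3 window 13 and the Ndn window 11, numbers reached by 31.4%, 37.9% and 41.4% of all windows. RefSeq gave 11 windows for 7 of the 10 genes, none of them for H19, Peg10 or Sgce. Of the windows not printed, that of Plagl1 held 26, those of Meg3 13 and 1, that of Dlk1 9, the upstream window of Mest 8, a further one of Mest, which overlaps the printed window, 17, and the second window of Grb10 9. Of the 4 printed windows, that of Ndn held the fewest, though more than the windows of Mest and Grb10 with 8 and 9. A relation of CpG content to the ratios was not tested. DNA methylation was not measured.

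Intensities are given after quantile normalization of the arrays, in the deposited linear unit, and ratios are fibers over epithelium. The floor, the level below which a probe was taken as not above background, was 44.5 for epithelium and 32 for fibers. It was the 95th percentile of 1562 probes for receptor and keratin-associated genes taken to be silent in lens. A ratio is given where both values passed their floors. Where only the brighter value passed, it was divided by the floor for the other tissue, which gives a lower limit on the difference, written "at least" and called a bound. A value that passed its own floor but not that of the other array gave no direction. Genes with no direction counted as 0 in medians of log2 ratios, and bounds counted at their limit. Genes are represented by their brightest probe, and levels are not compared between probes. Of 19057 genes, 66.1% were below the floor on both arrays, against 5 of the 9 genes studied here. Of the 6451 genes above the floor on 1 array or more, 15.6% were at least 2-fold higher in fibers and 19.0% at least 2-fold higher in epithelium, against 1 and 3 of the 4 members above it. Among the 2986 genes above it on both, these shares were 14.3% and 17.5%, against 1 and 2 of the 3 members. No test was made of so few genes, and members that passed the floor in a single tissue had to differ.

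Of the calls at 2-fold over all genes, 45.1% were in the direction of fibers. The share was 52.8% with the higher floor applied to both arrays, but 9.72% with the arrays scaled to housekeeping genes. That scaling takes 0.83 off the log2 ratio of a gene above both floors, because 12 housekeeping genes above the floor on both arrays had a median log2 ratio of 0.83. The scaling moves the median log2 ratio of all measured genes from 0.00 to -0.58. Lens identity followed the labels. All 7 fiber markers with a probe (Crybb1, Cryba1, Crygc, Mip, Lim2, Bfsp2 and Prox1) were higher in fibers, such as Mip, a membrane water channel, at 3206.5 in epithelium and 19878 in fibers. Of 5 epithelium markers 4 (Cdh1, Gja1, Pax6 and Pdgfra) were higher in epithelium, such as Cdh1, E-cadherin, at 854.5 and 164, and Foxe3, a lens transcription factor, was below the floor at -2 and 0.

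**Figure D1:**
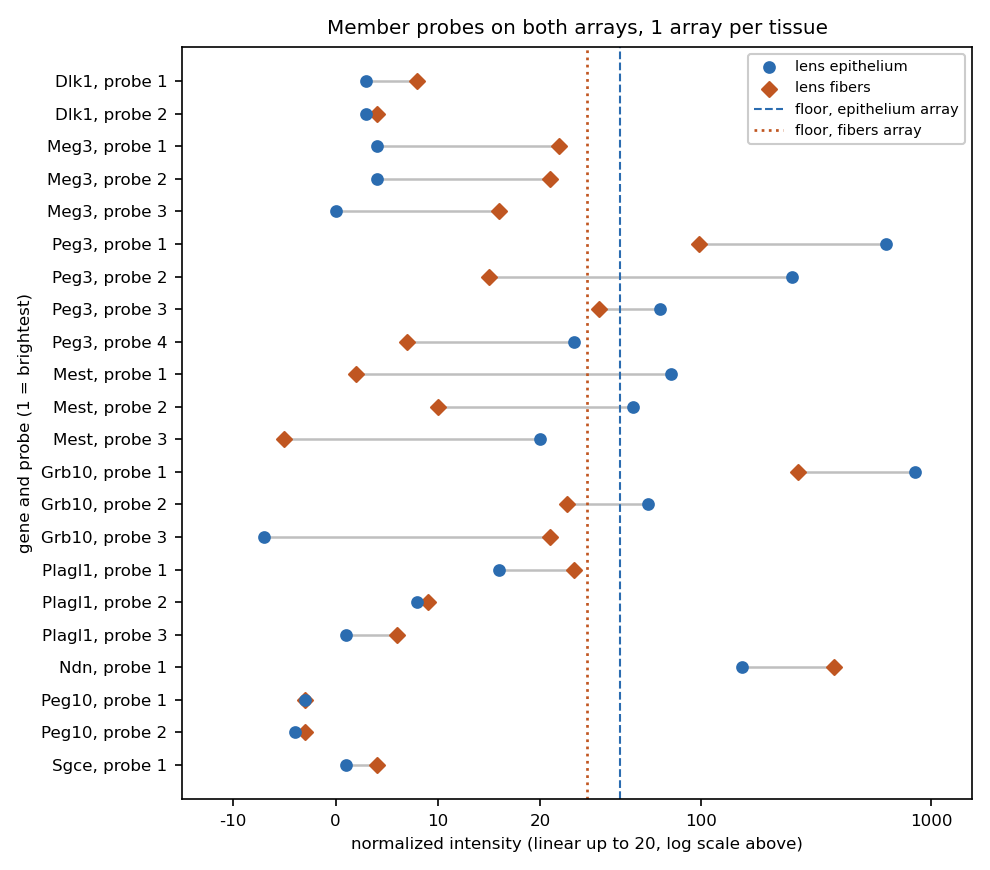
Normalized intensity of the 22 member probes in epithelium (circles) and in fibers (diamonds), 1 array each, with the floor of each array as a vertical line; the axis is linear around 0 and logarithmic at higher values. All 4 Peg3 probes and all 3 Mest probes have the epithelium value to the right of the fibers value, the Ndn probe the reverse, and all probes of Dlk1, Meg3, Plagl1, Peg10 and Sgce lie left of both floors.

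Peg3 had 4 probes. The brightest read 632.5 in epithelium and 98 in fibers, a log2 ratio of -2.69, the second 248.5 and 15, a bound of at least 7.77-fold, and the third 66 and 36, a log2 ratio of -0.87. The fourth, at 28 and 7, was below both floors. At the 99th percentile floor the bound of the second was -1.62 on the log2 scale. All 4 read higher in epithelium, but they differed in size. The ratios of the probes above the floor on both arrays were 1.82 apart on the log2 scale. A gap of that size or larger separated the 2 brightest probes of 10.8% of the 472 genes with several probes above the floor on both arrays, where the median gap was 0.51. Of the 2986 genes measured on both arrays, 36 had a lower log2 ratio than the brightest Peg3 probe.

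Grb10 had 3 probes, 1 of them annotated to its RefSeq mRNA and the others to cDNA clones. The probe of the mRNA read 850.75 in epithelium and 263 in fibers, a log2 ratio of -1.69. The next read 58.5 in epithelium, above the floor there, and 26 in fibers, a bound of at least 1.83-fold in the same direction. The third read -7 and 22, below both floors and therefore without a ratio. The level of Grb10 thus rests on the probe of the mRNA, and 206 of 2986 genes had a lower log2 ratio.

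Mest had 3 probes. They read 74 in epithelium and 2 in fibers, 50.5 and 10, and 20 and -5. The epithelium value was the higher for all 3, and the fibers values were below the floor throughout. The bounds were at least 2.31-fold and at least 1.58-fold for the probes above the epithelium floor, and there was none for the third. The difference of 2-fold depended on the floor and the probe. With the higher floor applied to both arrays the bound of the brightest probe was -0.73 on the log2 scale, with the mean of all probes it was -0.59, and at the 99th percentile floor Mest was below the floor on both arrays.

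Ndn had a single probe, which read 150 in epithelium and 376.5 in fibers, a log2 ratio of 1.33. Both values were well clear of the floors. Of 2986 genes, 280 had a higher log2 ratio. Scaled to housekeeping genes, the log2 ratio of Ndn was 0.49, below 2-fold in the same direction, while those of Peg3 and Grb10 were -3.52 and -2.53 and the bound of Mest was -2.04. The 32 probes of silent genes that passed the floor on both arrays had log2 ratios with an SD of 0.84 and a median of -0.49, on the side of epithelium.

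**Figure D2:**
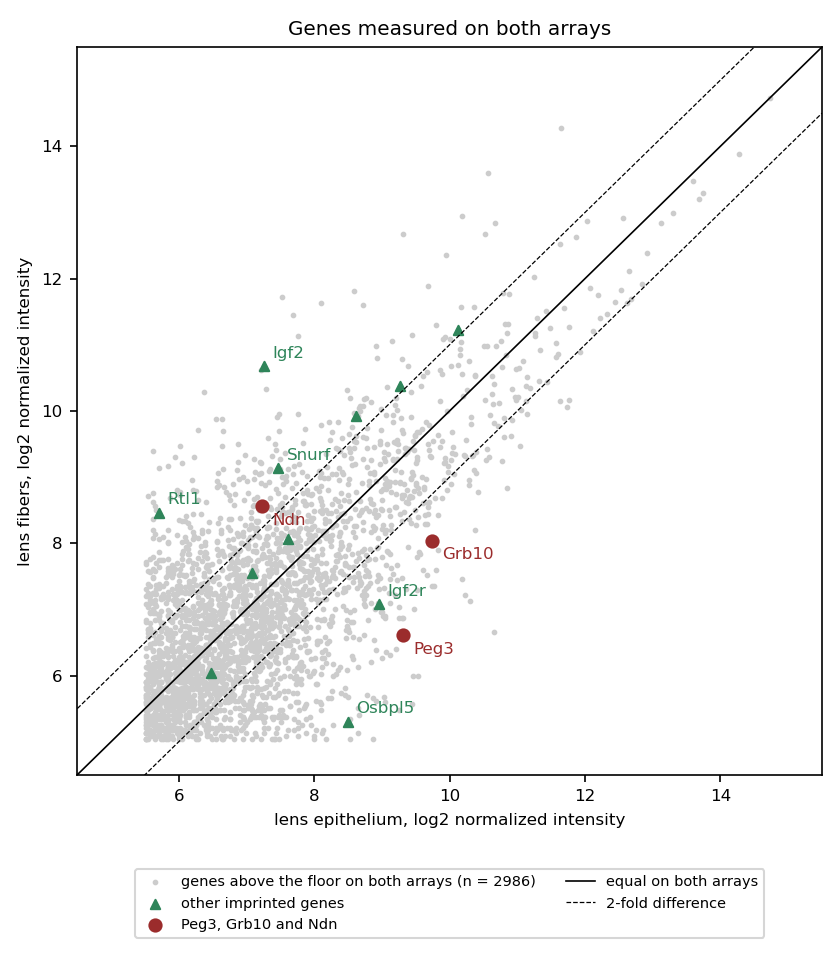
Log2 normalized intensity in lens fibers (vertical axis) against lens epithelium (horizontal axis) for 2986 genes above the floor on both arrays, with Peg3, Grb10 and Ndn as large points and the other imprinted genes as triangles. Peg3 and Grb10 lie below the lower 2-fold line and Ndn above the upper one, with Igf2 and Rtl1 further above it and Osbpl5 further below.

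The other genes were at the level of silent probes. Dlk1 encodes a membrane protein with EGF repeats related to the ligands of Notch, and its probes read 3 and 3 in epithelium and 8 and 4 in fibers. Meg3, a long noncoding RNA of the same cluster, read 4, 4 and 0 on its 3 probes in epithelium and 24, 22 and 16 in fibers. The Meg3 values in fibers were the higher for every probe, yet all were under the floor of 32. They exceeded those of 91.3%, 90.1% and 85.6% of silent probes.

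Plagl1, a zinc finger transcription factor that regulates other imprinted genes and can arrest the cell cycle, read 16, 8 and 1 in epithelium and 28, 9 and 6 in fibers. Its brightest probe came closest to the floor in fibers, above 93.1% of silent probes. Peg10, a gene derived from a retrotransposon, read -3 and -4 in epithelium and -3 and -3 in fibers. Sgce, epsilon-sarcoglycan, a neighbour of Peg10 in the genome, read 1 and 4. Across these 5 genes the 11 probes ranged from -4 to 16 in epithelium and from -3 to 28 in fibers. No direction is given for them, since a value below the floor shows only that the transcript was not detected by these probes.

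Imprinted genes lie in clusters, and the neighbours of the members were read as a further set. A list of 65 other imprinted genes held 57 with a named probe, of which 31 were below the floor on both arrays, against 66.1% of all genes. Of the 26 above it on 1 array or more, 8 were at least 2-fold higher in fibers, 3 were higher in epithelium, 11 differed less and 4 had no direction, against 15.6% in fibers and 19.0% in epithelium over all measured genes. Their median log2 ratio was 0.33, against 0.00 over all measured genes. When scaled to housekeeping genes, the counts were 3 in fibers and 7 in epithelium, of 26 genes. Over all 6420 genes measured under that scaling, they were 295 and 2739.

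In the Peg3 cluster, Zim1, a zinc finger gene next to Peg3 that is known to be expressed from the maternal copy, read 78 in epithelium and 18 in fibers. The difference was at least 2.44-fold, in the direction of Peg3, although a common floor moved the bound to -0.81 on the log2 scale. Usp29, which shares the promoter region of Peg3, was below the floor on all 3 probes, the brightest at 30 and 16. Copg2 and Klf14 near Mest, and Ddc and Cobl near Grb10, were below both floors. Their brightest probes read at most 23 in epithelium, for Cobl, and 5 in fibers.

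In the Dlk1 and Meg3 cluster the result was different. Rtl1, a gene of retrotransposon origin that lies next to Meg3, read 52 in epithelium and 352 in fibers, a log2 ratio of 2.76, on its brightest probe, and -1 and -4 on the second. Rtl1 was thus higher in fibers by 6.77-fold on a single probe, while all probes of Dlk1 and Meg3 were below the floor and gave no direction. On the log2 scale its value was 1.67, a bound, at the 99th percentile floor, 1.97, also a bound, with the mean of all probes and 1.98 with a pseudocount and no floor. A transcript antisense to Rtl1 is known from the maternal copy, and the strand read by the probe was not determined here. Rian, a noncoding RNA of the cluster, read 4 and 58.5, a bound of at least 1.31-fold in favour of fibers that was lost when scaled to housekeeping genes. Dio3, at 16 and 9, and Begain, at 1 and -3, were below the floor.

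Ndn lies beside Magel2 and Mkrn3 in the region that also holds Snurf and Snrpn. Snurf, whose transcript also encodes the splicing protein of Snrpn, read 177 in epithelium and 561.75 in fibers, a log2 ratio of 1.67, in the direction of Ndn. Its second probe read 88 on both arrays, and the others were below the floor, so the probes disagree. Mkrn3, a ubiquitin ligase gene, read 135 and 188, with a log2 ratio of 0.48 that was -0.36 when scaled to housekeeping genes. Snurf was at 0.83 under that scaling. Magel2, Peg12, Atp10a and Ube3a were below both floors on every probe.

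Around Peg10 and Sgce, 8 of the 10 cluster genes were below the floor, both members among them. The exception with a ratio was Pon2, a paraoxonase family gene, at 614 in epithelium and 1327.5 in fibers, a log2 ratio of 1.11 that was 0.28 when scaled to housekeeping genes. Ppp1r9a, a neurabin gene, read 26 and 34 and had no direction. Casd1, Pon1, Pon3, Asb4, Tfpi2 and Calcr were the others below it. Beside H19, which had no probe, Igf2 read 153.5 and 1640.5, a log2 ratio of 3.42, and Ins2, an insulin gene, was below the floor at 16 and 12.

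**Figure D3:**
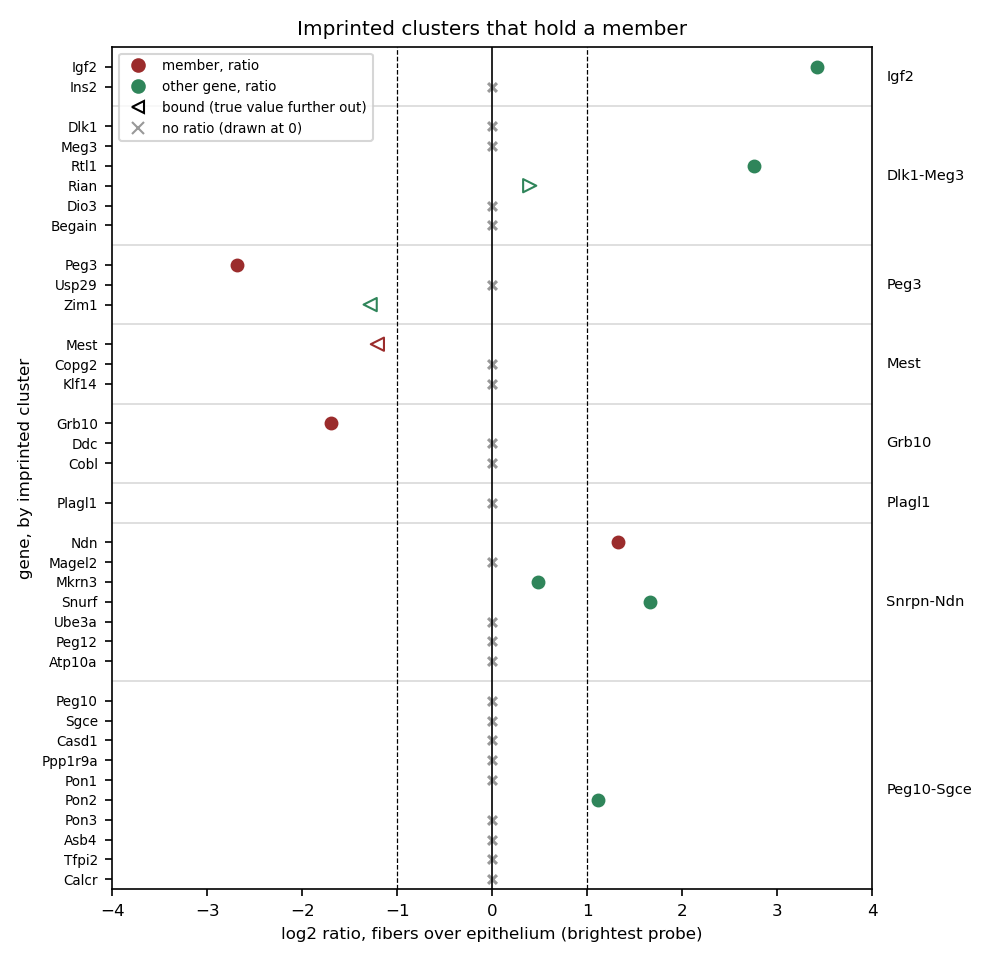
Log2 ratio of fibers over epithelium (horizontal axis, brightest probe) for the genes of the imprinted clusters that hold a member; filled points are ratios, open triangles bounds, and crosses genes with no ratio, drawn at 0. Peg3, Zim1, Mest and Grb10 lie left of the 2-fold line, and Igf2, Rtl1, Ndn, Snurf and Pon2 lie right of it.

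Imprinted genes of other clusters were read in the same way. Gnas, which encodes the stimulatory G protein alpha subunit, was at 39 in epithelium and 399 in fibers on its brightest probe, at least 8.97-fold higher in fibers. Other Gnas probes read 71 and 114, and 98 and 56, so the probes of this locus, which makes several transcripts, differ in direction. The log2 ratio of Gnas was 0.68 with the second brightest probe, below 2-fold. With the mean of all probes it was a bound of 0.47, which does not show whether the difference reached 2-fold. Nap1l4, a histone chaperone, read 1112.5 and 2399, a log2 ratio of 1.11 that was 0.27 when scaled to housekeeping genes. Blcap read 0 and 91, at least 2.04-fold higher in fibers, with a bound of 0.20 on the log2 scale under that scaling and no direction at the 99th percentile floor.

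In the other direction, Osbpl5, an oxysterol-binding protein gene, read 361.5 and 39.5, so its log2 ratio was -3.19, and a second probe was below the floor. It was a bound of -2.16 at the 99th percentile floor, a bound of -2.55 with the mean of all probes and a value of -2.20 with a pseudocount and no floor. Igf2r, the receptor that clears Igf2, read 496.5 in epithelium and 135 in fibers, a log2 ratio of -1.88. Cdkn1c, the cell cycle inhibitor p57, read 392 and 972.5, a log2 ratio of 1.31 that was 0.48 when scaled to housekeeping genes. Imprinted genes therefore stood on both sides. Of those above both floors, Igf2 and Rtl1 kept a difference of 2-fold or more in fibers under that scaling too. Peg3, Grb10, Igf2r and Osbpl5 kept theirs in epithelium. Bounds of 2-fold or more that also held were 2.33 for the brightest Gnas probe, -2.04 for Mest and -2.12 for Zim1 on the log2 scale.

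Whole tissue was read, so fewer cells of a type and less RNA per cell cannot be told apart. Several of these genes are known to be active in mesenchyme, muscle and vessels, and markers of such cells were therefore read alongside. The list sums add the brightest probe of each gene, leave out negative values and include values below the floor. Of 10 periocular mesenchyme markers, 9 were below the floor on both arrays, among them the collagens Col1a1, Col1a2 and Col3a1, and the list summed to 297.5 in epithelium and 80 in fibers. The exception was Tfap2b, at 208.5 and 36 on its brightest probe, in the direction of Peg3, Grb10 and Mest, and its part in their differences was not tested. Muscle markers were below the floor on all 5 genes, with sums of 48 and 52. Of 7 endothelial markers, 6 were below it, Pecam1 and Cdh5 among them, with list sums of 72 and 111.5. Tek read 7 and 83.5, in the direction of Ndn. Its bound of 0.91 on the log2 scale was 0.07 when scaled to housekeeping genes, and it had no direction at the 99th percentile floor.

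Most markers of the remaining cell types were below the floor. The 5 retina markers were all below the floor, with sums of 41.5 in epithelium and 24 in fibers. Of 5 pigment cell markers Pmel passed it, at 56 and 11, with list sums of 140.5 and 37. Of 5 macrophage markers Aif1, at 54.5 and 34, and Csf1r, at 30 and 36, passed, with sums of 95.5 and 77. Of 4 surface ectoderm markers Krt5 passed, at 49 and 65, with sums of 97 and 92. Of 5 erythroid markers Hbb-y, at 121.5 and 124, and Hba-a1, at 15 and 76.5, passed, with sums of 141.5 and 212.5. The log2 ratios of Krt5 and Hbb-y turned negative when scaled to housekeeping genes, to -0.43 and -0.80, and Hba-a1 then had no direction. The part of these cells in the values of the imprinted genes was not tested.

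**Figure D4:**
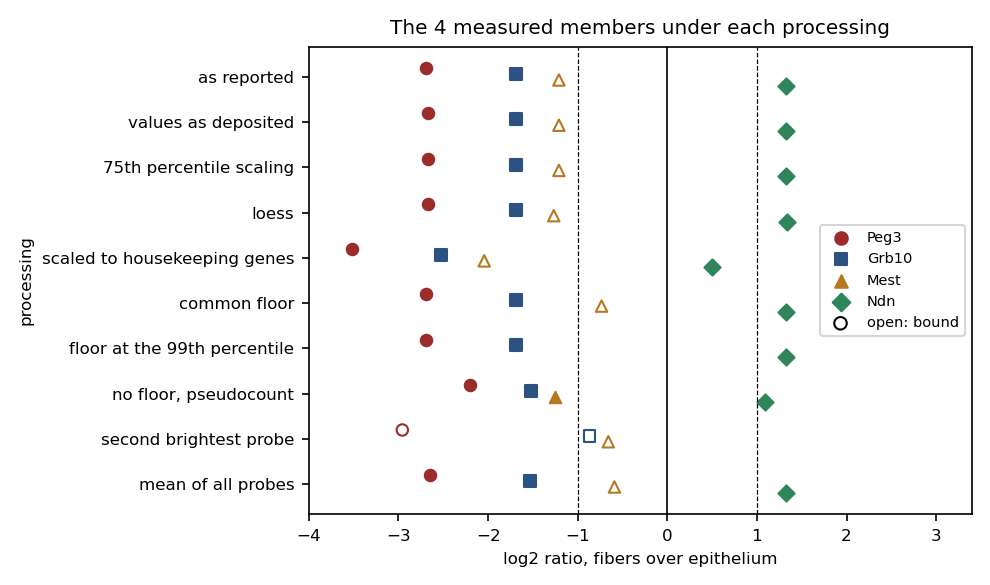
Log2 ratio of fibers over epithelium (horizontal axis) of Peg3, Grb10, Mest and Ndn, each by gene, as reported and under 9 other ways of processing (rows); open symbols are bounds. The signs of all 4 genes are the same in every row where they have a value. The bound of Mest lies inside the 2-fold line in 3 rows, as does that of Grb10 with its second brightest probe. The ratio of Ndn lies inside it when scaled to housekeeping genes.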

How the data were processed

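RNA of 1 lens epithelium and 1 lens fibers sample was read on 1-colour Illumina arrays, per the labels' protocols. The authors deposited 1 linear intensity per probe and array, as whole numbers from -16 upward. Of these, 38.0% were at or below 0 in epithelium and 38.7% in fibers, which raw scanner signals would not be. The sources used here state neither a background correction nor a scaling. The number of arrays limits the precision.

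Probes were named from the platform annotation. It gave 34885 probes 1 symbol, 18 several and 10378 none, and the last 2 kinds entered the normalization but were not used for any gene. Arrays were quantile normalized (Python 3.11.15, numpy 2.4.6, pandas 2.3.3), which hides any difference in total RNA. Log2 ratios, bounds and the 95th percentile floor were computed as described with the results, and the calculation was tested on simulated data. A difference was called at 2-fold. The 9 alternatives covered normalization, floor, a pseudocount of 50 and the choice of probe.

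The members and gene lists were chosen with earlier results of these data known. Named were all member probes, imprinted neighbours, other imprinted genes at 2-fold or more and markers above the floor. A planned list of genes with the intensities most like those of a member is not given, since it would set levels of different probes against each other.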

Additional observations from a re-analysis of the deposited data

How the results depend on the processing

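Peg3, Grb10, Mest and Ndn kept their sign under every alternative in which they had a value. Log2 ratios or bounds ran from -3.52 to -2.21 for Peg3 and from -2.53 to -0.87 for Grb10. They ran from -2.04 to -0.59 for Mest and from 0.49 to 1.33 for Ndn. The -0.87 of Grb10 was a bound, as were all values of Mest except that with a pseudocount. A smaller bound shows a lower limit, not a smaller difference. No probe of the other 5 genes passed the floor under any alternative that had one. At 2-fold, the members higher in fibers numbered 1, but 0 when scaled to housekeeping genes and 0 with the second brightest probe, which Ndn lacks. Members higher in epithelium numbered 3, but 1 with the second brightest probe. The number was 2 with the common floor, at the 99th percentile floor and with the mean of all probes. The median log2 ratio of the measured members, -1.45, was -2.29 when scaled to housekeeping genes. It was 0.082 with no floor and a pseudocount, where all 9 genes enter. The other imprinted genes, 8 in fibers and 3 in epithelium, were 3 and 7 when scaled to housekeeping genes and 0 and 0 with the second brightest probe, with 4 genes measured. The counts over all genes, 1007 in fibers and 1225 in epithelium, depended on the processing. These were 295 and 2739 when scaled to housekeeping genes, 346 and 468 at the 99th percentile floor, 220 and 256 with the second brightest probe and 666 and 765 with the mean of all probes, with fewer genes measured under the last 3. Values as deposited, scaling to the 75th percentile, loess and the common floor moved each of these counts by 1.5 times or less. The side with more calls over all genes still changed with the common floor, at 1007 in fibers and 900 in epithelium. With no floor and a pseudocount these were 979 and 965. No paired analysis was possible because each tissue has a single array.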
